A study of Mus musculus with 3 samples.

Results

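The genes described here are Map3k8, Map2k1, Map2k3, Map2k4, Mapk3, Mapk8, Mapk9, Mapk14 and Mapkapk2, which encode kinases of the MAP kinase cascades that act below Toll-like receptor 4 (TLR4). They were chosen by gene symbol, and all 9 were found among the 55536 genes of the deposited gene tables. The RNA came from the cytosolic fraction of C57BL/6J mouse macrophages derived from bone marrow. They had been given Lipid A, the endotoxin moiety sensed by TLR4, at 100 ng/ml for 12 h, then kept without it for 12 h, then given 100 ng/ml again for 10 min. The 3 libraries were labelled biological replicates 1, 2 and 3. They belong to a single condition and share 1 donor identifier. The labels do not say whether they came from separate animals, so p-values measure only the spread between these libraries. No untreated or singly treated library was analysed here, and the values are levels in restimulated cells, not responses to Lipid A. Age was not recorded in the labels.

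Signals from TLR4 pass through kinases arranged in tiers, in which each kinase phosphorylates and activates the next. MAP3 kinases such as TAK1 and TPL-2 activate MAP2 kinases, and these activate the MAP kinases of the ERK, JNK and p38 branches. In macrophages these branches act on transcription factors and on proteins that set the stability and translation of cytokine mRNAs. Most of this control is by phosphorylation, which RNA levels do not measure.

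The libraries held 31968675, 53094481 and 57070432 expected counts in genes, for replicates 1, 2 and 3. Replicate 1 stood apart: nuclear-encoded protein-coding genes took 34.3% of its TPM (a length-corrected transcript abundance scaled to a fixed total) against 27.8% in each of the others. The 5 RNAs listed as retained in the nucleus summed to 1435 TPM in replicate 1 against 133 and 170.3 TPM in replicates 2 and 3, and all 5 were highest in replicate 1. Most of each sum was Malat1, at 1333, 118.3 and 151.75 TPM, which was picked once its values were known. Of the 5, 2 reached 1 TPM in every library. All 10 macrophage markers reached at least 10 TPM in every library, with a median of 127 TPM. The 20 markers of lymphocytes, neutrophils, erythroid cells and fibroblasts summed to 0.72, 0.20 and 0.36 TPM, and none reached 1 TPM in every library.

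All 9 kinase genes were expressed, over a range from Mapkapk2 at 65.8 ± 11.3 TPM to Mapk8 at 2.70 ± 1.16 TPM (mean ± SD, n = 3 throughout). Each reached at least 1 TPM in every library. Of the 9, 5 reached at least 10 TPM in every library (Mapkapk2, Mapk3, Map2k1, Mapk14 and Mapk9), where 17.3% of all 22015 nuclear-encoded protein-coding genes did so. That count follows the scale: it was 8 after TPM was rescaled to the total of the nuclear-encoded protein-coding genes, with Mapk8 the exception. Rescaling raises every gene of a library alike, and the share of all protein-coding genes was not counted on the rescaled scale. The rank order of the 9 was the same in replicates 2 and 3. In replicate 1, Map2k1 stood above Mapk3 and Map3k8 above Map2k4.

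Neighbours in this order can be compared over all libraries or within each library. On the TPM scale the ranges of Mapk3 and Map2k1 overlapped, as did those of Map2k1 and Mapk14, of Mapk9 and Map3k8, and of Map3k8 and Map2k4. The ranges of Mapkapk2 and Mapk3, of Mapk14 and Mapk9, of Map2k4 and Map2k3, and of Map2k3 and Mapk8 did not overlap. Within libraries, Map2k1 was 1.43, 1.12 and 1.09 times Mapk14, and Mapk9 was 1.26, 1.81 and 1.79 times Map3k8, so these pairs kept their order in all 3 libraries although their ranges overlapped. The orders of Mapk3 and Map2k1 and of Map3k8 and Map2k4 turned in replicate 1. The gene counts of all 9 were whole numbers in every library, within 0.005 of a count, and no exon of another annotated gene overlapped theirs.

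**Figure D1:**
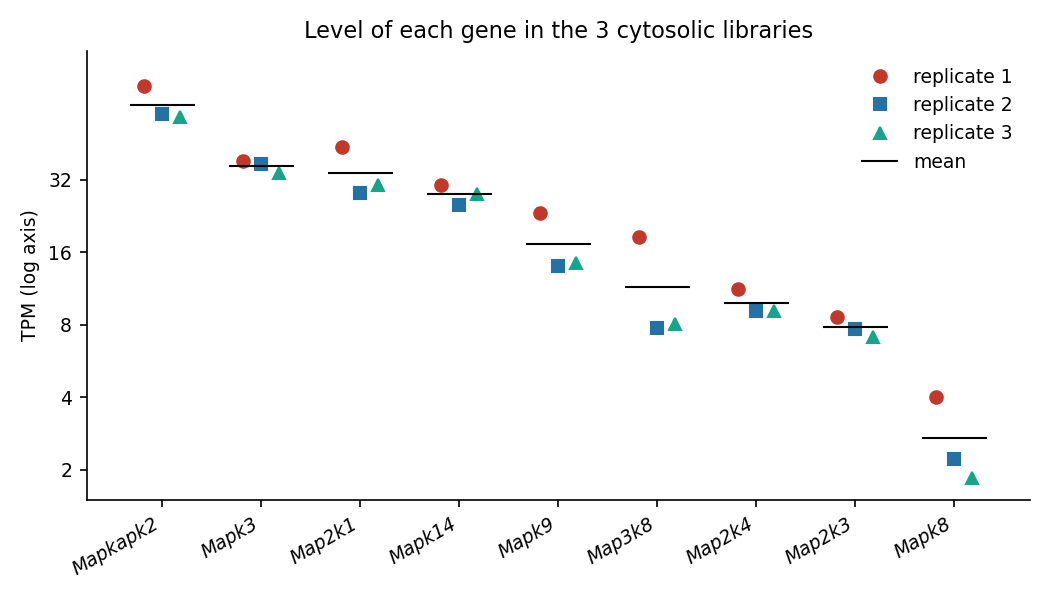
TPM of the 9 kinase genes on a log axis, one point per library, with the mean as a line. Mapkapk2 lies highest at a mean of 65.8 TPM and Mapk8 lowest at 2.70 TPM. The replicate 1 point is the highest for each gene on this scale, on which protein-coding genes together were also highest in replicate 1.

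Map3k8 encodes TPL-2, the MAP3 kinase that links TLR4 to the ERK branch. The gene lies at chr18:4331327-4353015 (mm10, minus strand). Its level was 18.6, 7.75 and 8.09 TPM in replicates 1, 2 and 3, from 1735, 1697 and 1934 counts. Replicate 1 stood above the others on this scale, and replicates 2 and 3 lay close together. On TMM-normalised log2 CPM, a count scale corrected for library size and composition, the values were 5.80, 4.98 and 5.07. Replicate 1 exceeded the mean of the others by 0.77 on the log2 scale, 1.71-fold. Over all 12515 genes tested the same difference had a median of -0.01 and quartiles of -0.22 and 0.25.

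The transcripts of Map3k8 differed between libraries in kind as well as amount. The 8-exon coding transcript Map3k8-201 took 66.2%, 98.4% and 97.0% of the gene's TPM. The rest was mostly in transcripts of the retained-intron class, which keep intron sequence and carry no annotated coding frame, at 29.2%, 1.63% and 2.99%. The larger of these was Map3k8-203, at 20.03%, 1.63% and 2.01%. Its last exon, chr18:4347455-4349338, extends the second exon of the coding transcript (chr18:4348981-4349338) into the following intron and holds 1884 bases. Map3k8-204 took 9.17%, 0.00% and 0.98%, and both of these transcripts have means under 10% and were picked once their values were known. In the transcript table made directly from the reads, the same class took 35.8%, 2.14% and 3.02% of Map3k8, so the split between replicate 1 and the others appeared in both quantifications.

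Counted in coding transcripts alone, Map3k8 stood at 12.3, 7.63 and 7.85 TPM. Replicate 1 was then 1.59-fold the mean of the others, against 2.35-fold for the whole gene on the same scale. After rescaling to protein-coding genes these ratios were 1.29-fold for the coding transcripts and 1.90-fold for the gene. The nuclear-retained RNAs that were highest in the same library are given above, and their part in the level of Map3k8 was not tested.

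Among the 22 MAP3 kinase and RAF genes listed here, 17 reached 1 TPM in every library and 6 reached 10 TPM, with a median of 5.64 TPM. Those named as high are Taok3 at 34.5 ± 7.30 and Map3k1 at 25.2 ± 2.69 TPM, and the lowest was Map3k19 at 0.0067 TPM. Map3k8 ranked 7 of these 22. Map3k7, which encodes TAK1, the MAP3 kinase at the head of the JNK and p38 branches, stood at 6.53 ± 1.09 TPM. In resting macrophages TPL-2 protein is held in a complex with the NF-kB precursor p105 and the adaptor ABIN-2. Their genes Nfkb1 and Tnip2 were measured at 24.8 ± 5.16 and 5.39 ± 1.54 TPM. Map3k7, Nfkb1 and Tnip2 were picked once their values were known.

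The MAP2 kinases were led by Map2k1, which encodes MEK1, the kinase that TPL-2 phosphorylates and that activates ERK. The gene lies at chr9:64185770-64253631 on the minus strand. Its level was 43.7, 28.35 and 30.4 TPM, from 4366, 5836 and 6922 counts. Replicate 1 was highest, as it was for all 9 genes on TPM, where protein-coding genes together also took their largest share in that library. On log2 CPM the values were 7.13, 6.76 and 6.91, so that replicate 1 lay 0.29 above the mean of the others. Map2k2, the gene of the related kinase MEK2, stood at 31.8, 30.75 and 33.1 TPM, and the ranges of the pair overlapped. Map2k1 was 1.37 times Map2k2 in replicate 1 and 0.922 and 0.919 times Map2k2 in replicates 2 and 3, so the order of the pair turned between libraries.

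Map2k3 and Map2k4 were lower and more even. Map2k3 encodes MKK3, an activator of p38, and lies at chr11:60932033-60952811 on the plus strand. It stood at 8.66, 7.69 and 7.16 TPM, from 766, 1415 and 1447 counts. Map2k6, which encodes the related p38 activator MKK6, stood at 0.42, 0.73 and 0.92 TPM. The ratio of Map2k3 to Map2k6 was 20.6, 10.5 and 7.78, so Map2k3 exceeded Map2k6 in every library. The counts of Map2k6 were 35, 123 and 175, and its log2 CPM was 0.22, 1.22 and 1.63, lowest in replicate 1. Map2k4 encodes MKK4, an activator of JNK, and lies at chr11:65688243-65788297 on the minus strand. It stood at 11.3, 9.18 and 9.14 TPM, from 1696, 2741 and 3004 counts. Map2k7, which encodes MKK7, the other JNK activator, stood at 10.7, 8.32 and 6.99 TPM, a range that overlapped that of Map2k4. Map2k4 was 1.06, 1.10 and 1.31 times Map2k7 within the libraries. Map2k5, which encodes the activator of ERK5, stood at 7.72, 8.05 and 6.51 TPM. Of the 7 MAP2 kinase genes, 6 reached 1 TPM in every library, and Map2k6 did not.

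Each of Map2k1, Map2k3 and Map2k4 was made up almost wholly of 1 coding transcript. Map2k1-201 took 98.3%, 99.2% and 99.8% of its gene's TPM, Map2k3-201 took 96.9%, 99.2% and 98.2%, and Map2k4-201 took 93.1%, 90.5% and 90.2%. The table made directly from the reads gave Map2k4-201 a lower share, at 72.0%, 85.5% and 85.9%, and Map2k3-201 a share of 84.5% in replicate 1.

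Mapk3, which encodes the ERK branch kinase ERK1, had a higher mean TPM than Mapk14, Mapk9 and Mapk8. It lies at chr7:126759601-126765819 on the plus strand and stood at 38.3, 37.2 and 34.1 TPM, from 2724, 5431 and 5454 counts. Its 3 libraries spanned a narrow range on TPM. On TPM rescaled to protein-coding genes they stood at 111.6, 133.9 and 123.0, and the counts varied between libraries beyond counting error.

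In Mapk3, 2 transcripts passed the 10% mean share. Mapk3-202, with 1140 coding bases, took 89.4%, 81.9% and 75.7% of the gene's TPM. Mapk3-203, with 795 coding bases, took 9.86%, 17.9% and 24.3%, and its first exon (chr7:126760597-126760913) begins inside the first intron of Mapk3-202. The table made directly from the reads gave Mapk3-203 only 7.17%, 0.0088% and 0.872%, so the share of this transcript was not settled by the quantifications.

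Mapk14 encodes p38alpha and lies at chr17:28691329-28748406 on the plus strand. It stood at 30.45, 25.3 and 28.0 TPM, from 4167, 7467 and 9243 counts. Replicate 1 was highest on TPM and lowest on log2 CPM, at 7.06 against 7.12 and 7.33. The other p38 genes were far lower. Mapk11, the gene of p38beta, stood at 0.32, 0.38 and 0.36 TPM, so that Mapk14 was 95.2, 66.6 and 77.7 times Mapk11. Mapk12 and Mapk13, the genes of p38gamma and p38delta, had at most 5 and 6 counts in any library.

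Mapk8 and Mapk9 encode JNK1 and JNK2. Mapk9 lies at chr11:49846751-49886421 on the plus strand and stood at 23.4, 14.0 and 14.5 TPM, from 3033, 4061 and 4871 counts. Mapk8 lies at chr14:33377898-33447158 on the minus strand and stood at 4.03, 2.22 and 1.86 TPM, from 452, 579 and 569 counts. For both genes replicate 1 was highest, as it was for all 9 genes on TPM, a scale on which protein-coding genes together were also highest there. Mapk9 was 5.80, 6.31 and 7.78 times Mapk8, above it in every library, and 6.05, 6.96 and 8.47 times Mapk8 in the table made directly from the reads. Mapk10, which encodes JNK3, had 4, 1 and 0 counts.

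The intervals deposited with TPM, whose confidence level is not stated, ran from 3.71 to 5.13 TPM for Mapk8 in replicate 1. They ran from 2.11 to 2.82 in replicate 2 and from 1.77 to 2.44 in replicate 3. The intervals of replicates 2 and 3 overlapped each other and not that of replicate 1.

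**Figure D2:**
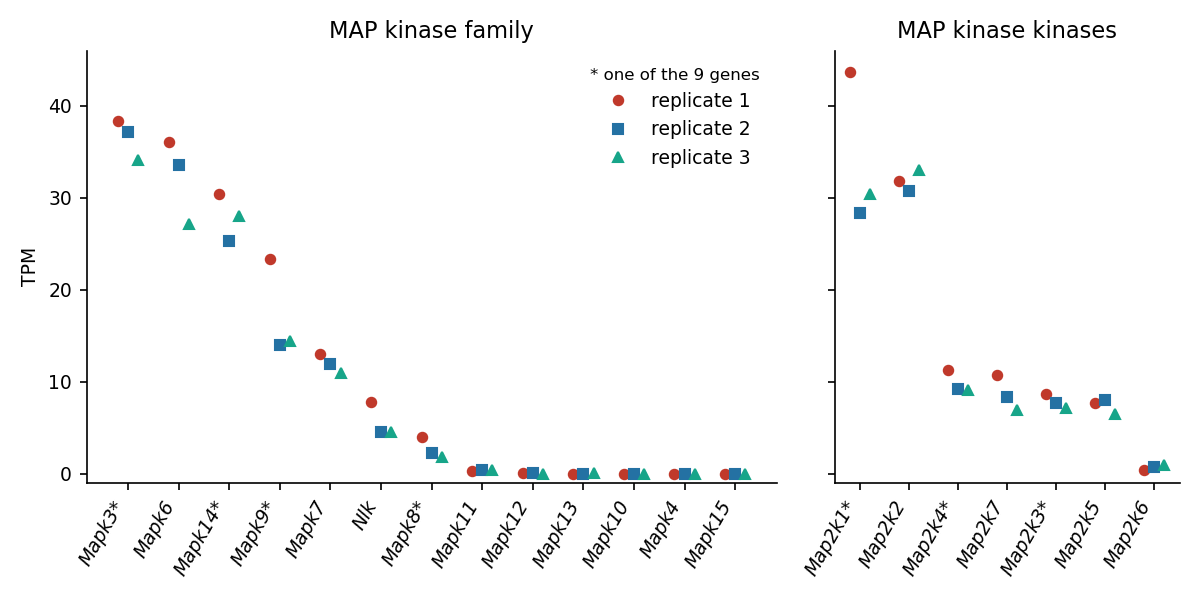
TPM of 13 MAP kinase genes (left) and the 7 MAP2 kinase genes (right), one point per library, with an asterisk on members of the set of 9. Mapk3, Mapk6 and Mapk14 lie between 25.3 and 38.3 TPM, while Mapk11, Mapk12, Mapk13, Mapk10, Mapk4 and Mapk15 lie under 1 TPM in every library.

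Of the 13 MAP kinase genes listed here, 7 reached 1 TPM in every library. Besides the genes already given, Mapk6, which encodes the atypical kinase ERK3, stood at 36.1, 33.6 and 27.2 TPM. Mapk7, the gene of ERK5, stood at 13.0, 11.9 and 11.0 TPM, and Nlk, the gene of nemo-like kinase, at 7.80, 4.55 and 4.53 TPM. Mapk4 had 1 count in 1 library. Mapk15 had 0 counts in every library, where 3 counts would have made at most 0.0675 TPM, a limit that covers counting error only.

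The genes of JNK1, JNK2 and p38alpha each contain a pair of neighbouring exons of equal length, and no annotated coding transcript holds both as internal coding exons. In the JNK proteins these exons encode part of the kinase domain and are known to alter substrate binding. The pairs are shown because transcripts that carry them could be counted separately in each gene. Sequences are from GENCODE M21 transcripts, written in the sense of the mRNA from 5′ to 3′, and capitals mark bases that differ from the other exon of the same pair. The Mapk8 exons are chr14:33390673-33390744 (upstream) and chr14:33390242-33390313 (downstream) on the minus strand. The Mapk9 exons are chr11:49873836-49873907 and chr11:49874264-49874335, and the Mapk14 exons are chr17:28737011-28737090 and chr17:28740680-28740759, all on the plus strand.
Mapk8 upstream: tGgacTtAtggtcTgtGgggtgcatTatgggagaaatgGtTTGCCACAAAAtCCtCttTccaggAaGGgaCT
Mapk8 downstream: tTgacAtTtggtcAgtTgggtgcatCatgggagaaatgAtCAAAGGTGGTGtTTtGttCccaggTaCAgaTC
Mapk9 upstream: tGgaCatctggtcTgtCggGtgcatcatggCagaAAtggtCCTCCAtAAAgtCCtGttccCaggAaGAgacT
Mapk9 downstream: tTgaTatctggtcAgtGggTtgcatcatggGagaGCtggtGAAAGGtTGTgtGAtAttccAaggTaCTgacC
Mapk14 upstream: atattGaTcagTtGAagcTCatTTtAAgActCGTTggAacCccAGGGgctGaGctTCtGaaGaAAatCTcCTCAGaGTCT
Mapk14 downstream: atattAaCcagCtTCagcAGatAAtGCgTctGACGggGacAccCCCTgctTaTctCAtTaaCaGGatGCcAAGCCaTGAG

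The exons of Mapk8 and Mapk9 are 72 bases long and those of Mapk14 are 80 bases long. Exons at the same place in Mapk8 and Mapk9 were more alike than the 2 exons of either gene. The upstream exons of Mapk8 and Mapk9 share 81.9% of bases and the downstream exons 79.2%, against 62.5% within the Mapk8 pair and 65.3% within the Mapk9 pair. The Mapk14 exons share 48.8%, with 41 of 80 bases differing.

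Mapk9 and Mapk14 each leaned strongly to 1 exon of the pair. In Mapk9 the downstream exon took 91.1%, 94.0% and 91.4% of the TPM of transcripts that hold either exon. In Mapk14 the upstream exon took 87.3%, 83.5% and 84.7%. The 3 libraries lay close together for both genes, and the majority was the same in the table made directly from the reads (85.6%, 91.1% and 89.9% for Mapk9, and 86.4%, 82.2% and 83.6% for Mapk14). It was also the same when expected counts were used in place of TPM.

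For Mapk8 the majority turned with the measure. The upstream exon took 27.7%, 29.9% and 31.8% of the pair by TPM and 20.9%, 21.1% and 26.0% in the table made directly from the reads. By expected counts it took 59.5%, 58.5% and 59.9%. The upstream counts lay in Mapk8-205, which is 5756 bases long, and counts are not corrected for length. The downstream transcripts Mapk8-203 and Mapk8-201 are 1310 and 2587 bases long. The counts behind the upstream exon were 221, 333 and 329, assigned over whole transcripts rather than at the exon.

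**Figure D3:**
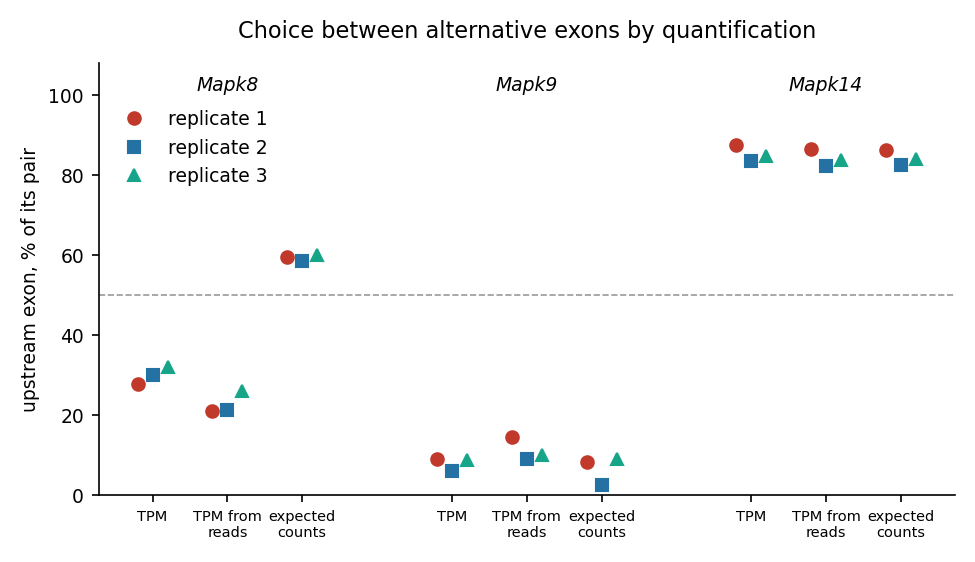
Share of the upstream exon in each pair of alternative exons, for 3 genes, 3 measures and 3 libraries, with a dashed line at equal use. Mapk9 lies at or under 14.4% and Mapk14 at or above 82.2% on every measure, while Mapk8 lies between 20.9% and 31.8% on both TPM measures and between 58.5% and 59.9% by expected counts.

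JNK transcripts also differ in their last coding exon, which gives a shorter and a longer protein. The short form starts this exon 5 bases earlier than the long form and meets a stop codon after 14 coding bases. These bases with the stop codon are shown for both genes because they distinguish the forms, with the 5 bases that the long form lacks in capitals. They lie at chr14:33382308-33382324 on the minus strand for Mapk8 and at chr11:49883142-49883158 on the plus strand for Mapk9.
Mapk8 short end: CACAGgtgcagcaatga
Mapk9 short end: CACAGatgcagcagtaa

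The short end prevailed in Mapk8, while the end that prevailed in Mapk9 depended on the quantification. In Mapk8 the short form, of 1152 coding bases, took 79.0%, 67.7% and 64.3% of coding TPM, and the long form of 1281 bases took the rest. Quantified directly from the reads, the short form had 75.6%, 64.0% and 64.4%. In Mapk9 the short form, of 1143 coding bases, took 44.7%, 41.3% and 44.3%, and the long form of 1269 bases took 55.3%, 58.7% and 55.7%. The table made directly from the reads put the Mapk9 long form at 52.3%, 48.5% and 49.8%, so the ends of Mapk9 were near equal use there, while by expected counts the long form took 76.5%, 76.8% and 71.4%.

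At the level of single transcripts, Mapk8-203, Mapk8-201 and Mapk8-205 led Mapk8. Mapk8-203 took 39.9%, 36.5% and 31.2% of the gene's TPM, Mapk8-201 took 16.4%, 31.2% and 34.4%, and Mapk8-205 took 21.6%, 28.9% and 30.8%. In replicate 1 Mapk8-203 stood above the others. Quantified directly from the reads, Mapk8-203 took 40.0%, 41.7% and 36.4%, Mapk8-201 took 17.8%, 34.9% and 33.6%, and Mapk8-205 took 15.3%, 20.5% and 24.6%. Mapk8-203 led in every library there, while in the former shares Mapk8-201 led in replicate 3. Mapk9 was led by Mapk9-201 at 44.7%, 51.6% and 50.8%, followed by Mapk9-204 at 32.4%, 31.9% and 27.5%. Quantified directly from the reads, Mapk9-204 came first, at 36.0%, 46.2% and 39.0%.

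Mapk14 had 3 transcripts past the 10% mean share, and replicate 1 differed from the others in which led. Mapk14-203 took 55.7%, 40.0% and 29.8% of the gene's TPM. Mapk14-202 took 26.2%, 41.3% and 53.9%, and Mapk14-201, the only transcript with the downstream exon of the pair, took 12.2%, 16.2% and 15.1%. Mapk14-203 starts at its own first exon (chr17:28692568-28692682) within the first intron of Mapk14-202 and has 849 coding bases against 1080. The table made directly from the reads gave Mapk14-203 lower shares of 37.9%, 24.4% and 14.3% and Mapk14-202 shares of 18.9%, 50.0% and 65.7%. In both quantifications Mapk14-203 was highest and Mapk14-202 lowest in replicate 1.

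Mapkapk2 encodes MK2, the kinase that p38alpha activates and that acts on proteins binding cytokine mRNAs. It lies at chr1:131053700-131097826 on the minus strand. Its level was 78.8, 60.05 and 58.5 TPM, from 9506, 14792 and 15878 counts, the highest of the 9 in every library. Replicate 1 was highest on TPM, and on log2 CPM it lay 0.14 above the mean of the others. Mapkapk2-201 took 100.0%, 100.0% and 99.9% of the gene's TPM, so a single transcript accounted for nearly all of it. The table made directly from the reads gave this transcript 92.1%, 100.0% and 99.6%. Mapkapk3, which encodes the related kinase MK3 and was picked once its values were known, stood at 14.8, 13.7 and 12.2 TPM. Mapkapk2 was 5.31, 4.38 and 4.81 times Mapkapk3.

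Among 11 genes of kinases activated by MAP kinases, Mapkapk2 was the highest, followed by Mknk2 at 33.3 ± 0.560 and Rps6ka1 at 26.8 ± 2.65 TPM. These encode MNK2, which phosphorylates the translation factor eIF4E, and the ribosomal S6 kinase RSK1. In all, 8 of the 11 reached 1 TPM in every library, and Rps6ka6 had 0 counts, where 3 counts would have made at most 0.0389 TPM. Among 15 scaffold and adaptor genes 12 reached 1 TPM, led by Lamtor3 at 34.2 ± 4.35, Lamtor2 at 30.3 ± 2.33 and Tab2 at 26.7 ± 5.42 TPM. Lamtor3 encodes MP1, a scaffold of MEK1 and ERK, and Tab2 encodes a subunit of the TAK1 complex. Mapk8ip2, a JNK scaffold gene, had 0 counts.

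The phosphatases that switch MAP kinases off had a median of 2.32 TPM, and 8 of 14 genes reached 1 TPM in every library. The highest were Ppm1a at 21.5 ± 3.88, Dusp7 at 14.1 ± 1.20 and Ppm1b at 12.3 ± 2.12 TPM, and the lowest was Dusp14 at 0.0267 TPM. Among 20 genes of substrates, 19 reached 1 TPM in every library and the median was 13.2 TPM. Ddit3, which encodes the stress factor CHOP, was highest at 118.8 ± 26.0 TPM. Zfp36 and Zfp36l1, which encode mRNA decay factors that MK2 phosphorylates, stood at 47.1 ± 8.13 and 39.6 ± 3.80 TPM. Hspb1, the gene of the small heat shock protein that MK2 phosphorylates, was lowest at 0.107 TPM. For comparison, 9110 of 22015 nuclear-encoded protein-coding genes, or 41.4%, reached 1 TPM in every library.

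The counts of 7 of the 9 genes varied between libraries beyond counting error, in a chi-square test per gene with TMM library sizes and Benjamini-Hochberg adjustment. That share lies near the background of 71.5% of the 12515 genes tested, so it says little about these kinases. Map2k4 and Map2k3 did not pass, with chi-square values per degree of freedom of 2.19 and 1.34 and adjusted p = 0.142 and 0.305. The largest value was 172 for Map3k8, followed by 81.2 for Map2k1 and 69.5 for Mapk14, where the median over all genes tested was 9.15. The number that passed rested partly on replicate 1: without it 4 passed, namely Mapk3, Mapk9, Mapk14 and Map2k1, with 40.4% of all genes tested. Map3k8, Mapk8 and Mapkapk2 did not pass between replicates 2 and 3.

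The biological coefficient of variation (BCV), edgeR's estimate of relative spread beyond counting error, ran from 0.114 for Map2k4 to 0.228 for Map3k8. Each estimate is drawn towards that of other genes of like abundance, so it is not the gene's own spread alone. Map2k3, whose counts did not vary beyond counting error, had 0.129, above Mapk3 at 0.123, whose counts did. The median over all genes tested was 0.172. Of the 9, Map3k8 and Mapk8, at 0.228 and 0.201, lay above it, and the other 7 lay between 0.114 and 0.144. These values rested on replicate 1: without it the BCV of Map3k8 was 0.0878 and that of Mapk8 0.110, where the median over all genes tested was 0.105. With fewer libraries each value leans more on other genes, and the 9 then ran only from 0.0808 for Map2k4 to 0.110 for Mapk8. Without replicate 1 the BCV of Mapkapk2, Map2k1 and Mapk9 also fell by over 1.5 times, to 0.0930, 0.0888 and 0.0865. The median over all genes tested fell by over 1.5 times as well, from 0.172 to 0.105.

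Replicate 1 was highest for all 9 genes on TPM, and the direction for some of them changed with the scale. Nuclear-encoded protein-coding genes together took 34.3% of TPM in replicate 1 against 27.8% in each of the others. The share of all genes highest in replicate 1 was counted on log2 CPM only, so the TPM counts have no background. On log2 CPM replicate 1 was highest for 6 of 9, against 39.8% of all genes tested, and lowest for Mapk3, Mapk14 and Map2k3. Besides Map3k8, the genes above the mean of replicates 2 and 3 were Mapk8 by 0.49, Map2k1 by 0.29, Mapk9 by 0.28, Mapkapk2 by 0.14 and Map2k4 by 0.07 on the log2 scale. The differences for Mapk3, Mapk14 and Map2k3 were -0.17, -0.16 and -0.07. For Map2k4 the counts did not vary beyond counting error. With no filter on low counts, replicate 1 lay below the mean of replicates 2 and 3 for Map2k4. On TPM rescaled to protein-coding genes, replicate 1 was highest for 5 of 9, and Map2k4 stood at 32.9, 33.1 and 32.9. The genes above the others in replicate 1 on TPM, log2 CPM and rescaled TPM were Map3k8, Mapk8, Map2k1, Mapk9 and Mapkapk2.

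**Figure D4:**
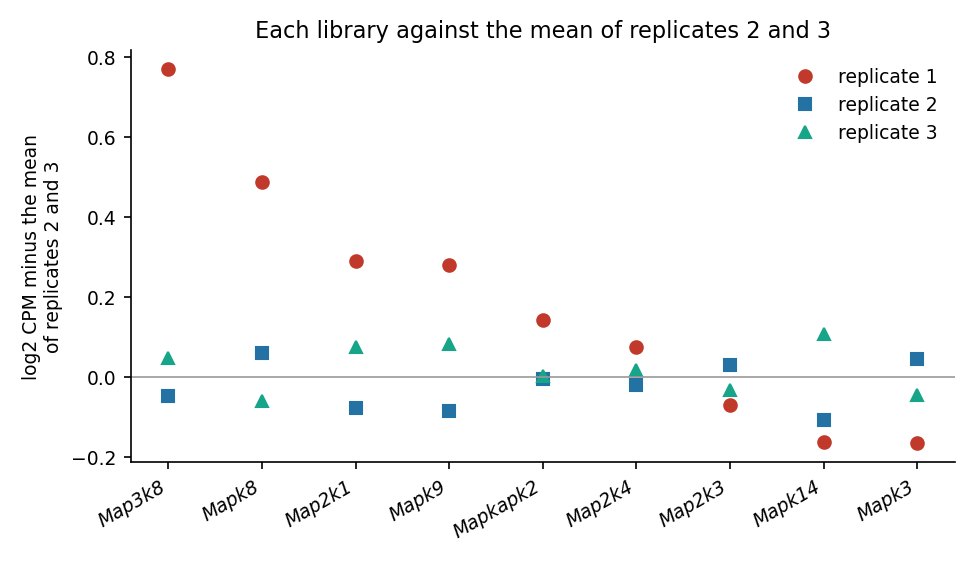
TMM-normalised log2 CPM of each library minus the mean of replicates 2 and 3, for the 9 genes. Replicate 1 lies 0.77 above that mean for Map3k8 and 0.49 above it for Mapk8, and below both other libraries for Map2k3, Mapk14 and Mapk3.

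Transcripts outside the protein-coding class made up their largest share in replicate 1 for 7 of the 9 genes, and Mapkapk2 has no such transcript annotated. The background was 65.7% of the 9064 tested protein-coding genes with such transcripts. For Mapk8 they took 22.1%, 3.44% and 3.64% of the gene's TPM, of which 18.8%, 3.44% and 3.64% was in the retained-intron class. For Mapk9 they took 13.2%, 2.72% and 5.72%, all of it outside the retained-intron class, which is not annotated for this gene. For the remaining genes apart from Map3k8 no share in any library passed 5.57%, the share of Map2k4 in replicate 2. Quantified directly from the reads, the shares in replicate 1 were higher for Mapk14, Map2k4 and Map2k3, at 20.0%, 19.4% and 15.5%. Retained-intron transcripts are annotated for 6 of the 9 genes, and their share was highest in replicate 1 for 6 of 6. The same held for 77.6% of 6774 genes with such a transcript, whose median share was 5.53%, 0.68% and 0.68%. The shares of Map3k8 and Mapk8 in replicate 1 were above that median, and those of Mapk3, Mapk14, Map2k1 and Map2k3, at 0.77%, 2.74%, 1.14% and 3.08%, were below it.

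**Figure D5:**
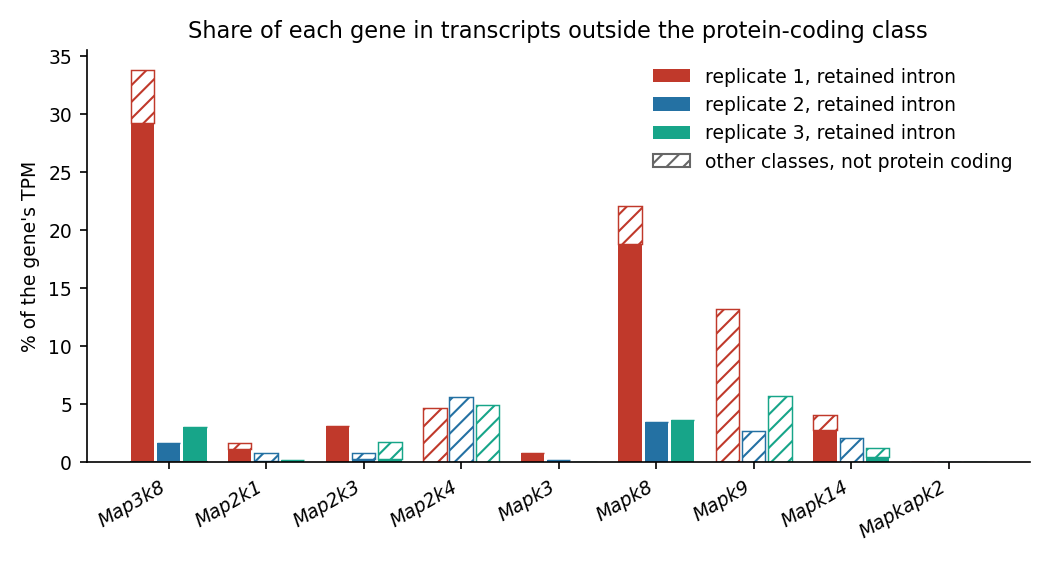
Percent of each gene's TPM in transcripts outside the protein-coding class, by library, with the retained-intron part filled and other classes hatched. Replicate 1 reaches 33.8% for Map3k8 and 22.1% for Mapk8, where replicates 2 and 3 lie between 1.63% and 3.64%.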

How the data were processed

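RNA of the cytosolic fraction was sequenced after ribosomal depletion, from 1 µg of RNA and inserts of 250 to 400 bases per the labels, in 3 libraries of 1 group. The authors deposited expected counts, which need not be whole, per gene and per transcript. They rest on reads aligned to the transcriptome, with mm10 and GENCODE M21 as build and annotation, per the notes in the deposited files. The same deposited tables hold TPM, scaled to a fixed total, with interval bounds, and each transcript's percent of its gene, per the file headers. A further transcript table, made directly from the reads per those notes, holds deposited estimated counts and TPM. The tools' versions and the strand setting are not stated in the sources used here. TPM moves with the share of noncoding RNA in a library, so libraries were also compared on log2 CPM and on rescaled TPM. Entries that name no gene (26345, with 139733, 71391 and 47024 counts) stayed out of library sizes and tests.

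Rounded expected counts entered edgeR 4.0.16 (R 4.3.3), where low genes were filtered and TMM factors and intercept-only dispersions fitted, and log2 CPM used a prior count of 2. With 1 group there is no contrast. A chi-square test of each gene's counts for 1 common rate asked whether counts varied beyond counting error. It used TMM library sizes and Benjamini-Hochberg adjustment over 12515 genes (threshold 0.05). The simulated counts on which it was tried held counting error only, besides some genes changed in 1 library. That trial checks the code, not how well the test suits these data. Alternatives were DESeq2 1.42.0 size factors, library sizes alone, no filter, other TPM scales and thresholds, and leaving out each replicate. Exon shares sum the transcripts that hold each exon. The text names the 9 genes, the MAP kinases and MAP2 kinases, the 3 highest and the lowest of each other cascade list, and transcripts with a mean share of at least 10%. Some genes that this rule names are not reported here and stayed out of the lists, and no gene took their place, so that 2 MAP3 kinases are named as high. Members and lists were chosen with earlier results of these data known.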

Additional observations from a re-analysis of the deposited data

How the results depend on the processing

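The number of the 9 genes at 10 TPM or more in every library was 5. It was 8 on TPM rescaled to protein-coding genes, 8 at a threshold of 5 TPM, 4 at 20 TPM and 1 in the table made directly from the reads, whose protein-coding share of TPM was 24.3%, 10.1% and 8.15%. That table gave 8 when rescaled in the same way, an alternative added after seeing the data. Leaving out 1 replicate left the number at 5. For none of these alternatives was the share of all protein-coding genes counted. The number that varied beyond counting error was 7 with DESeq2 size factors and with library sizes alone, against 71.5% and 72.6% of all genes tested. With no filter it was 8, against 53.9%. It was 4, 7 and 6 without replicates 1, 2 and 3 in turn, against 40.4%, 58.2% and 61.5%, so the whole gene table moved with the setting.

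Alternatives for exon shares and ratios were added after seeing the data. The upstream exon's mean share of its pair was 29.8% by TPM, 22.7% from the reads and 59.3% by expected counts for Mapk8. For Mapk9 it was 7.82%, 11.1% and 6.57%. Leaving out 1 replicate gave 28.8% to 30.9% for Mapk8, 7.30% to 8.72% for Mapk9 and 84.1% to 86.0% for Mapk14. The mean ratio of Map2k1 to Map2k2 was 1.07 and ranged with 1 replicate left out from 0.920, reversed, without replicate 1 to 1.15. No paired analysis was possible because there is 1 group. Mapk8 has the lowest counts of the 9 genes, 452 to 579, and so the largest relative counting error, while Map3k8 has the larger BCV with all libraries.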
